A study of Mus musculus with 15 samples.

Results

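The 9 genes described here encode proteins that are widely used to mark or describe astroglia. They are the intermediate filament genes Gfap, Vim and Nes, the S100 genes S100b, S100a10, S100a6, S100a1 and S100a16, and the prominin gene Prom1. The list was set by gene symbol with no threshold on a measured value, but with earlier results of these data known, and it holds 9 of the 18193 genes measured. Each gene was read from the probe set with its highest mean over all 15 arrays. Of the 9 genes, 7 had further probe sets, 11 in all, which served as a cross-check.

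The RNA came from sorted astroglia of 3 brain regions, with 5 arrays from the SVZ (subventricular zone), 5 from the hippocampus and 5 from the cerebellum. All mice were males of 6 to 8 weeks with the genotype Gli1-CreER;GFAP-GFP;R26tdTomato, and all received tamoxifen as 2 doses of 10 mg, so the 3 groups differ by label in region alone. Cre recombinase made from the Gli1 locus switches on the red tdTomato reporter in cells that respond to Sonic hedgehog, and the GFAP-GFP transgene marks cells in which a GFAP promoter is active. Cells positive for both were sorted 3 weeks after tamoxifen, and each array holds a pool of 10 to 12 mice, so that the p-values below measure the spread between such pools. The gate used a GFAP promoter in every region, so the sort itself selected on a readout related to Gfap. The SVZ and hippocampus are sites of adult neural stem cells, and region and the presence of such cells cannot be told apart in this design. Nor can fewer cells of a type be told apart from less RNA per cell, since each array measured a bulk pool.

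Intermediate filaments are rope-like polymers of the cytoskeleton. Gfap forms the filaments of mature and reactive astrocytes, Vim (vimentin) those of immature astroglia, radial glia and mesenchymal cells, and Nes (nestin) needs a partner such as vimentin to polymerise and marks neural progenitors. S100 proteins are small calcium-binding dimers that change shape when calcium binds and then dock onto target proteins, with S100a10, which is locked in its active shape, as the exception. Prom1 (CD133) sits in membrane protrusions and primary cilia and is used to isolate neural stem cells. In the cerebellum the Bergmann glia, whose radial fibres span the molecular layer, are known for strong vimentin and S100b protein.

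In the mouse genome (RefSeq, GRCm38.p6) Gfap lies on chromosome 11, Vim on chromosome 2, Prom1 on chromosome 5 and S100b on chromosome 10. Nes and the other 4 S100 genes all lie on chromosome 3, where the S100 cluster runs from S100a1 through S100a16 and S100a6 to S100a10. The promoters of Vim, S100b and Prom1 are shown because these are the 3 genes that passed the test against the cerebellum in both other regions. Each line gives the 250 bases before the annotated start, 5′ to 3′ on the gene's own strand, from RefSeq GRCm38.p6. Vim is at chr2:13574061-13574310 on the plus strand, S100b at chr10:76253586-76253835 on the plus strand, and the first of 2 annotated Prom1 starts at chr5:44101737-44101986 on the minus strand. Capitals mark TTGGC or its reverse complement GCCAA, the core of the sites bound by nuclear factor I (NFI), a family of transcription factors known for its role in astrocyte genes.
Vim: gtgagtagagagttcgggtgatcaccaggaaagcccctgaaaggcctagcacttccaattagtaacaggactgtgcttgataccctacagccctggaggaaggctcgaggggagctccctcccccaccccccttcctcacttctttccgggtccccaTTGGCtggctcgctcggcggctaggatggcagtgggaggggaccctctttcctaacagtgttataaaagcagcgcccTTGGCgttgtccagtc
S100b: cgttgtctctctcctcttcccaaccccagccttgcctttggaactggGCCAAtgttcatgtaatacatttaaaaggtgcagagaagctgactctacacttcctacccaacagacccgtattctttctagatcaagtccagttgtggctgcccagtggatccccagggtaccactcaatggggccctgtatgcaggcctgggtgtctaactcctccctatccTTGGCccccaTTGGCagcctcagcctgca
Prom1: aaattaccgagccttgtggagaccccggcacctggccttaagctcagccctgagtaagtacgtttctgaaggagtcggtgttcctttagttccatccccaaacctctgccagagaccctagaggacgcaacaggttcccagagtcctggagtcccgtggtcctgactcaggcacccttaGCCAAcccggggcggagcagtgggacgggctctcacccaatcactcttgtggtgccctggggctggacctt
Vim held 2 such matches, S100b held 3 and the printed start of Prom1 held 1, while the second Prom1 start held 0. RefSeq promoters were matched for 8 of the 9 genes as 10 starts, of which 4 held the NFI core, against 41.5% of all 32851 mouse promoters of this length. The STAT motif TTCNNNGAA was in 0 of the 10 starts (7.0% of all promoters), the GC box GGGCGG in 3 (32.7%) and the TATA box TATAAA in 1, that of Vim (12.4%). Both strands were searched, no base belonged to more than 1 motif match, and a match describes letters, not a bound site.

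All values are log2 signals after RMA, the standard summary of Affymetrix probe sets, so a difference of 1 is a 2-fold change. The median probe set of an array read 1.12 to 1.31 and the highest 14.97 to 15.08, so values near 1 lie at the floor of the array. These medians are low for RMA values, the log base is not stated, and every fold given here rests on reading it as log2. Of the probe sets, 15.1% to 19.5% read above 3 on SVZ arrays, 15.2% to 19.8% on hippocampus arrays and 20.1% to 22.4% on cerebellum arrays. The mean of the added poly-A control transcripts was 11.04 to 13.1 in SVZ, 11.51 to 12.85 in hippocampus and 8.49 to 12.34 in cerebellum. Array pairs of a region correlated across genes at 0.763 to 0.894 in SVZ, 0.791 to 0.884 in hippocampus and 0.939 to 0.97 in cerebellum. Astrocyte markers were well above the floor in all regions, with a mean of the 12 genes between 8.22 and 9.81 on every array and the gap junction gene Gja1 at 10.44 or above.

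Against the cerebellum, SVZ astroglia had less Vim and S100b RNA and more Prom1 RNA, and hippocampal astroglia had less Vim, S100b and S100a10 RNA and more Prom1 RNA, with a small rise in Nes at the floor of the array. In SVZ 1 of the 9 genes was called higher, beside 1.03% of all genes, and 2 were called lower, beside 4.47%, which makes 3 in all beside 5.51%. In hippocampus 2 were called higher, beside 0.808% of all genes, and 3 lower, beside 3.97%, which makes 5 in all beside 4.78%. A call means a Benjamini-Hochberg adjusted p under 0.05 in limma's moderated test over all 18193 genes, the test behind every adjusted p given here. In SVZ against hippocampus 0 of the 9 genes were called, beside 0.022% of all genes (0.0165% higher and 0.0055% lower).

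**Figure D1:**
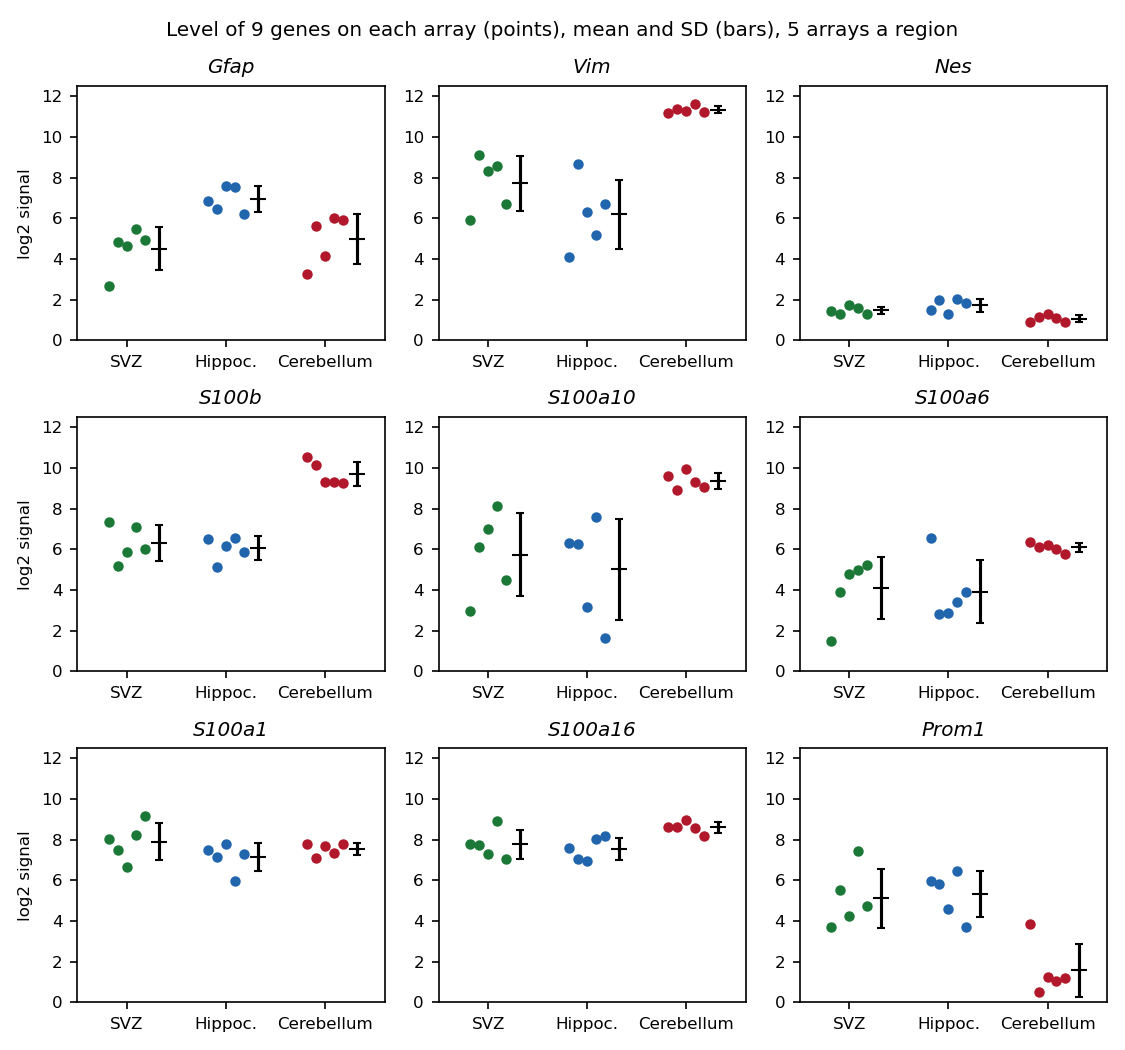
Log2 signal (vertical axis) of the 9 genes on each of the 5 SVZ, 5 hippocampus and 5 cerebellum arrays (points), with the mean and SD beside them (bars). Vim and S100b stand apart in the cerebellum at 11.16 to 11.61 and 9.27 to 10.55, above every SVZ and hippocampus array, while Prom1 lies at 0.53 to 1.24 on 4 of the 5 cerebellum arrays.

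Among the intermediate filaments, Vim showed the widest gap. It read 5.9, 9.09, 8.32, 8.59 and 6.68 in SVZ, 4.11, 8.65, 6.31, 5.2 and 6.68 in hippocampus, and 11.16, 11.39, 11.29, 11.61 and 11.2 in cerebellum. The cerebellum arrays were tightly grouped and lay above all 10 others. The difference from the cerebellum was -3.61 ± 0.74 in SVZ (SE; 12.2-fold lower, adjusted p = 0.0112) and -5.14 ± 0.74 in hippocampus (35.3-fold lower, adjusted p = 0.000875). The other 2 Vim probe sets gave -4.84 and -3.59 in SVZ and -4.99 and -5.6 in hippocampus, and only the SVZ value of -3.59 missed the threshold, with an adjusted p of 0.0537. Each Vim call held when any single array was left out. The SVZ call was lost without cerebellum 4 and 5 together (-3.56, adjusted p = 0.081), and both calls were lost when the control transcript level was made a covariate, with -2.62 and an adjusted p of 0.373 for SVZ and -4.19 and an adjusted p of 0.0639 for hippocampus.

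Gfap, by its brightest probe set, was highest in the hippocampus. Its signals were 2.69, 4.83, 4.65, 5.46 and 4.91 in SVZ, 6.83, 6.46, 7.6, 7.56 and 6.2 in hippocampus, and 3.26, 5.62, 4.15, 6.03 and 5.9 in cerebellum. Every hippocampus array exceeded every SVZ and cerebellum array, while SVZ and cerebellum overlapped. Hippocampus minus cerebellum was 1.94 ± 0.59 and missed the threshold (adjusted p = 0.0843), and SVZ minus cerebellum was -0.48 ± 0.59 (adjusted p = 0.657). The hippocampus difference passed with quantile normalization (2.42, adjusted p = 0.0273), with the genes of low mean left out (adjusted p = 0.0493) and without SVZ 1 (adjusted p = 0.0438). In most of the 12 other settings it did not pass. Over these 12 it ran from 0.62 to 2.91, with an adjusted p of up to 0.187.

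The Gfap probe sets did not give the same picture. Probe set 1426508_at averaged 2.43 ± 0.72 in SVZ, 4.18 ± 1.57 in hippocampus and 4.88 ± 0.75 in cerebellum (SD, n = 5 each), so that the hippocampus was not the highest region. By that probe set Gfap was lower in SVZ than in cerebellum (-2.44 ± 0.64, adjusted p = 0.0423), and hippocampus minus cerebellum changed sign to -0.69 ± 0.64 (adjusted p = 0.563). Probe set 1426509_s_at averaged 4.47 ± 0.82 in SVZ, 5.52 ± 0.82 in hippocampus and 4.92 ± 0.54 in cerebellum, and neither difference from the cerebellum passed. With the 3 probe sets averaged, SVZ minus cerebellum was -1.13 (adjusted p = 0.0204). SVZ was the lowest of the regions by all 3 probe sets, and the order of hippocampus and cerebellum depended on the probe set.

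Nes stayed near the floor in every region. It read 1.43, 1.32, 1.73, 1.57 and 1.32 in SVZ, 1.47, 2.01, 1.3, 2.03 and 1.82 in hippocampus, and 0.9, 1.17, 1.32, 1.08 and 0.9 in cerebellum. Array medians of all probe sets ran from 1.2 to 1.31 in SVZ, 1.2 to 1.27 in hippocampus and 1.12 to 1.17 in cerebellum, so they too were lowest in the cerebellum. The regions differed by less than 1 log2 unit and the hippocampus and cerebellum arrays overlapped. Hippocampus minus cerebellum was 0.65 ± 0.17 (adjusted p = 0.0395) and SVZ minus cerebellum 0.40 ± 0.17 (adjusted p = 0.192). The hippocampus call held in 2 of 11 other settings and with 8 of 15 single arrays left out, and it was lost without hippocampus 2, 4 or 5 or without cerebellum 1, 2, 4 or 5 (adjusted p between 0.0677 and 0.106). The further probe sets gave 0.43 (adjusted p = 0.43) and -0.36 (adjusted p = 0.409).

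**Figure D2:**
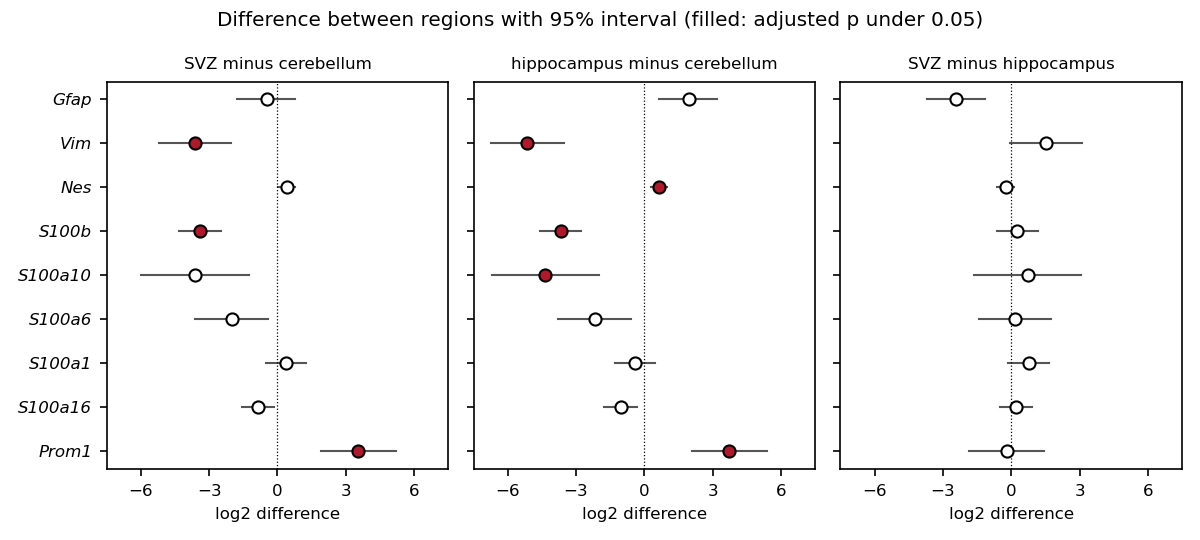
Log2 difference (horizontal axis) with its 95% confidence interval for each of the 9 genes in the 3 comparisons, filled where the adjusted p was under 0.05. Vim and S100b lie left of 0 and Prom1 right of 0 in both comparisons with the cerebellum, and no point is filled for SVZ minus hippocampus.

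Of the S100 genes, S100b gave the firmest differences. S100b, the classical glial S100 protein, read 7.32, 5.2, 5.87, 7.11 and 6.03 in SVZ, 6.53, 5.11, 6.15, 6.54 and 5.89 in hippocampus, and 10.55, 10.14, 9.29, 9.33 and 9.27 in cerebellum. All cerebellum arrays lay above all others, and the SVZ and hippocampus arrays overlapped, with SVZ 1 and SVZ 4 above every hippocampus array. SVZ minus cerebellum was -3.41 ± 0.42 (10.6-fold lower, adjusted p = 0.000254) and hippocampus minus cerebellum -3.67 ± 0.42 (12.7-fold lower, adjusted p = 0.000118). The second probe set gave -3.23 ± 0.51 and -4.01 ± 0.51 (adjusted p = 0.00194 and 0.000327). Both S100b calls held in 12 of 12 other settings and with each of the 15 arrays left out.

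S100b is also made by oligodendrocytes and ependymal cells, and their markers are given beside it. Of 9 oligodendrocyte markers 1 was called, Cnp, which was lower in both comparisons, while 2 others were higher in each at an unadjusted p under 0.05. Among all genes, 21.1% in SVZ and 20.1% in hippocampus passed at that level against the cerebellum, in either direction. Cnp in SVZ minus cerebellum was -2.02 ± 0.26 (adjusted p = 0.000315), and the hippocampus difference was -2.97 ± 0.26 (adjusted p = 8.26e-06). The log2 of the summed level of these 9 genes ran from 7.94 to 8.91 in SVZ, 6.84 to 8.12 in hippocampus and 9.97 to 10.42 in cerebellum, and was made up mostly of Cnp, which itself read 7.71 to 8.44, 6.49 to 7.98 and 9.94 to 10.39 in those regions. The median difference of the 9 genes was 0.11 in SVZ and 0.16 in hippocampus. The myelin genes Mbp and Mobp averaged 4.76 and 3.04 in SVZ, against 2.39 and 1.49 in cerebellum (adjusted p = 0.119 and 0.206), and Mog and Mag stayed between 0.62 and 1.38 on all arrays. The 10 ependymal markers had none called, and 1 of them, Rarres2, was lower in each comparison with the cerebellum at an unadjusted p under 0.05. Their log2 summed level was 5.08 to 6.94 in SVZ, 4.9 to 8.13 in hippocampus and 7.46 to 8.53 in cerebellum. Rarres2 had the highest mean of the 10 in every region, and it read 3.59 to 6.55, 3.11 to 7.48 and 7.28 to 8.37 in those regions. Foxj1, the regulator of motile cilia, stayed between 0.64 and 4.09. The part of these cells in the S100b difference was not tested.

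S100a10, the S100 protein that pairs with annexin A2, was called lower in hippocampus than in cerebellum by 2 probe sets of unequal spread, and in SVZ by the dimmer of them. The brightest read 2.97, 6.12, 6.99, 8.13 and 4.49 in SVZ, 6.32, 6.28, 3.18, 7.61 and 1.66 in hippocampus, and 9.58, 8.91, 9.93, 9.3 and 9.07 in cerebellum. The cerebellum arrays all lay above the rest, but SVZ and hippocampus arrays were widely scattered, with an SD of 2.04 and 2.48 against 0.41 in cerebellum. SVZ minus cerebellum was -3.62 ± 1.10 (adjusted p = 0.0731), and hippocampus minus cerebellum was -4.35 ± 1.10 (20.4-fold lower, adjusted p = 0.0365). The hippocampus call held in 7 of 12 other settings, and it was lost without hippocampus 3 or 5 or any single cerebellum array (adjusted p between 0.0688 and 0.0898). The settings that ended it were quantile normalization (0.0662), leaving out SVZ 1 with hippocampus 3 (0.0617), cerebellum 4 with 5 (0.166) or hippocampus 2 and 5 with cerebellum 5 (0.126), and the control transcript covariate (0.299), each an adjusted p. The difference under these settings stayed between -4.47 and -3.73.

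The dimmer S100a10 probe set, 1416762_at, separated the regions with little spread. It read 2.17, 2.34, 2.35, 2.17 and 3.02 in SVZ, 1.76, 2.37, 1.96, 1.92 and 1.73 in hippocampus, and 5.36, 5.17, 6.07, 5.91 and 5.61 in cerebellum. Its differences of -3.21 ± 0.21 in SVZ and -3.68 ± 0.21 in hippocampus had adjusted p-values of 1.06e-06 and 2.26e-07 in a fit of all probe sets. The third probe set, 1439348_at, averaged 0.74 in SVZ, 0.89 in hippocampus and 0.74 in cerebellum, at the floor everywhere.

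S100a6 (calcyclin), which has a single probe set, had its values in SVZ at 1.5, 3.89, 4.8, 5.0 and 5.21, in hippocampus at 6.56, 2.84, 2.85, 3.4 and 3.91, and in cerebellum at 6.34, 6.11, 6.21, 6.0 and 5.79. No SVZ array reached the cerebellum, and in hippocampus only the first did. The differences of -2.01 ± 0.74 in SVZ and -2.18 ± 0.74 in hippocampus missed the threshold (adjusted p = 0.14 and 0.117). Without hippocampus 1 the hippocampus difference was -2.84 and passed (adjusted p = 0.0193), as it did with arrays weighted by quality (adjusted p = 0.0365) and without SVZ 1 (adjusted p = 0.0491).

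S100a16, which lies between S100a1 and S100a6 in the cluster, read 7.79, 7.75, 7.3, 8.91 and 7.05 in SVZ, 7.6, 7.07, 6.95, 8.01 and 8.16 in hippocampus, and 8.61, 8.63, 8.98, 8.58 and 8.19 in cerebellum. Hippocampus arrays lay just below all cerebellum arrays, while SVZ 4 lay among them. The differences were -0.84 ± 0.33 in SVZ and -1.04 ± 0.33 in hippocampus (adjusted p = 0.165 and 0.0935). The second probe set gave -1.28 ± 0.29 in SVZ, which passed (adjusted p = 0.0195), while the hippocampus value of -1.07 ± 0.29 did not (adjusted p = 0.0526). With SVZ 4 left out, both differences of the brighter probe set passed, at -1.13 and -1.04 (adjusted p = 0.0332 and 0.034).

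S100a1, best known for regulating calcium handling in muscle, showed no call by any setting run. Its signals were 8.01, 7.5, 6.65, 8.21 and 9.15 in SVZ, 7.5, 7.15, 7.8, 5.99 and 7.29 in hippocampus, and 7.76, 7.09, 7.7, 7.35 and 7.79 in cerebellum, so that all 3 regions overlapped. The differences were 0.37 ± 0.41 in SVZ (95% interval -0.52 to 1.25, adjusted p = 0.627) and -0.39 ± 0.41 in hippocampus (95% interval -1.28 to 0.49, adjusted p = 0.6). The second probe set turned the SVZ difference to -0.91 and gave -0.21 in hippocampus. The intervals leave room for changes of up to 1.28 log2 units, so equal levels were not shown.

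**Figure D3:**
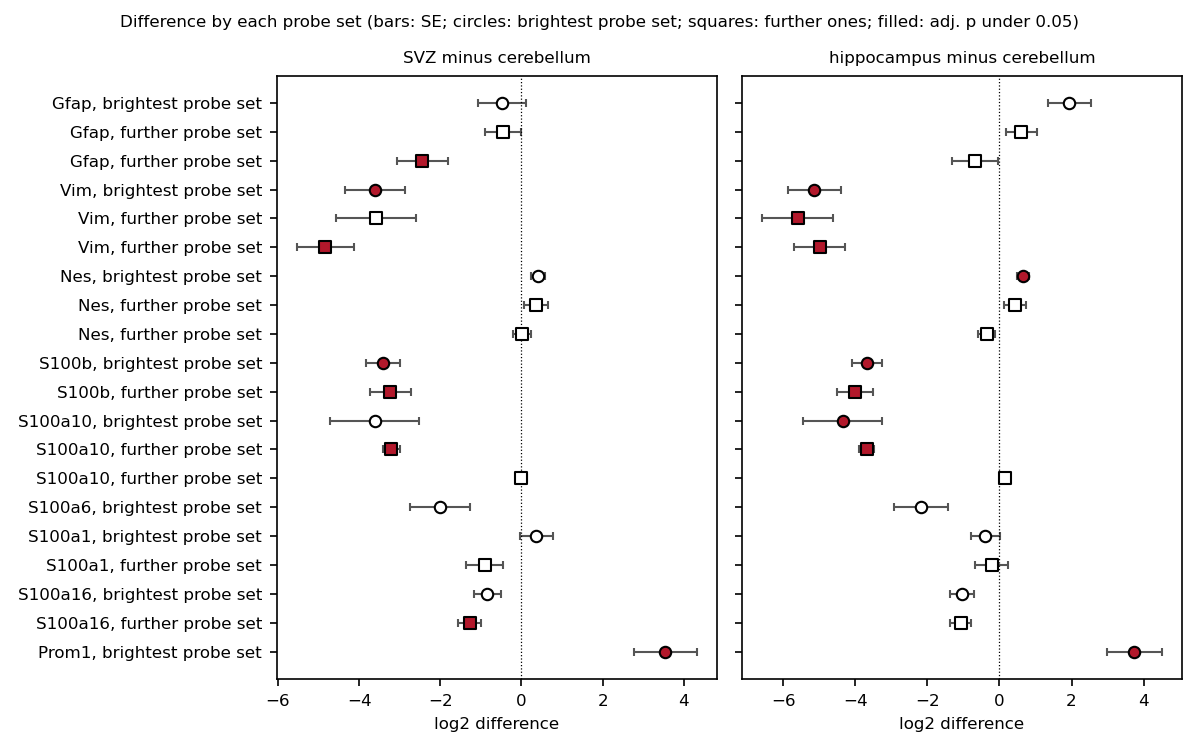
Log2 difference (horizontal axis, bars: SE) from the cerebellum for each of the 20 probe sets of the 9 genes, with the brightest probe set of a gene as a circle and further ones as squares, filled where the adjusted p over all probe sets was under 0.05. The probe sets of Vim, S100b and S100a16 lie on the same side of 0, while those of Gfap spread from -0.69 to 1.94 in hippocampus minus cerebellum.

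Over all 20 probe sets of the 9 genes, 8 were called in SVZ minus cerebellum and 9 in hippocampus minus cerebellum, beside 4.91% and 4.23% of the 34945 probe sets with a single gene symbol. None of the 20 was called in SVZ minus hippocampus, where 0.0143% of probe sets were.

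Prom1 was the gene called higher in both regions than in the cerebellum. Its signal was 3.71, 5.51, 4.25, 7.42 and 4.72 in SVZ and 5.99, 5.82, 4.6, 6.46 and 3.7 in hippocampus, against 3.86, 0.53, 1.24, 1.04 and 1.21 in cerebellum. On 4 cerebellum arrays the gene was at the floor, and cerebellum 1 reached the lowest SVZ and hippocampus arrays. SVZ minus cerebellum was 3.55 ± 0.77 for Prom1 (adjusted p = 0.0149), and hippocampus minus cerebellum was 3.74 ± 0.77 (adjusted p = 0.0114). The floor in the cerebellum limits what can be said of the size of the fold. Both calls held with each of the 15 arrays left out and in 10 of 12 other settings. They were lost without cerebellum 4 and 5 together (3.25 in SVZ and 3.44 in hippocampus, adjusted p = 0.121 and 0.108) and with the control transcript covariate (2.72 and 2.95, adjusted p = 0.393 and 0.307). Prom1 is also known from ependymal cells, whose marker levels are given with S100b, and their part in the Prom1 difference was not tested.

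Read without a test, the regions' arrays did not overlap for 4 of the 9 genes in SVZ against cerebellum (Vim, S100b, S100a10 and S100a6), beside 8.62% of all genes. In hippocampus against cerebellum the count was 5 (Gfap, Vim, S100b, S100a10 and S100a16), beside 7.98%. The study's own rule of more than a 4-fold change at p under 0.01, here limma's unadjusted p, kept Vim, S100b, S100a10 and Prom1 in each of these comparisons, beside 3.21% of all genes in SVZ and 2.87% in hippocampus. The median difference of the 9 genes was -0.84 in SVZ and -1.04 in hippocampus, where the median of all genes was 0.068 in both. Only 4816 of the 18193 genes had a mean over 3, so the median of all genes comes mostly from genes with little signal. Among all genes, too, more were called lower than higher against the cerebellum. Both comparisons use the same 5 cerebellum arrays.

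**Figure D4:**
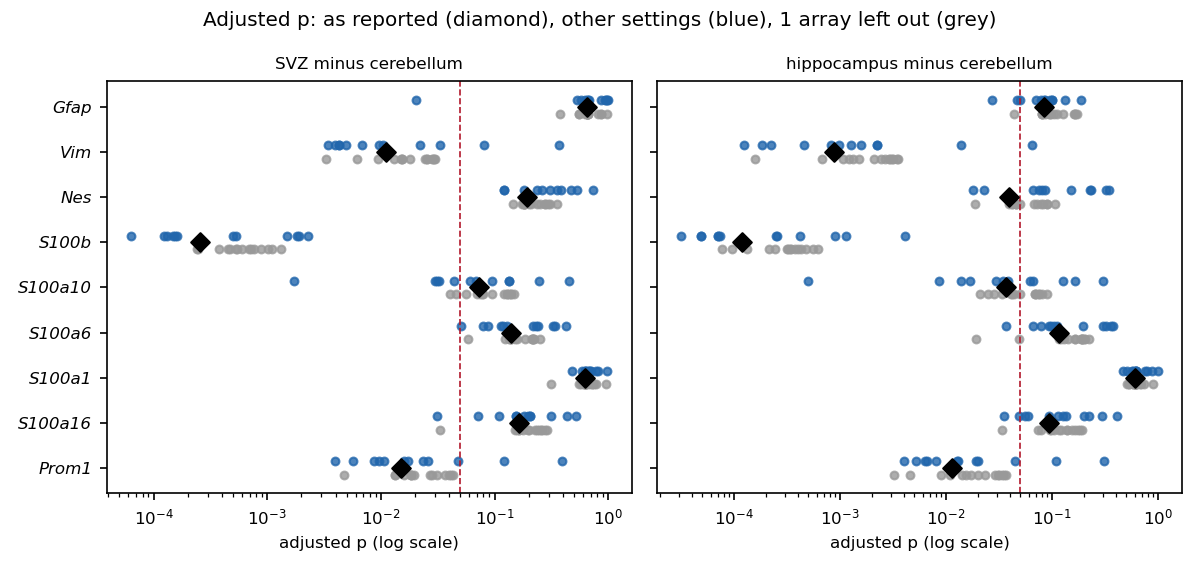
Adjusted p (log axis) of each of the 9 genes in the comparisons with the cerebellum, as reported (diamond), under other settings (blue) and with 1 array left out (grey); the dashed line marks 0.05. S100b stays left of the line throughout, and Vim and Prom1 cross it under few settings. In hippocampus minus cerebellum Gfap, Nes, S100a10, S100a6 and S100a16 lie on both sides, and in SVZ minus cerebellum Gfap, S100a10 and S100a16 do.

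Between SVZ and hippocampus the widest gap was that of Gfap. SVZ minus hippocampus was -2.42 ± 0.59 for Gfap (95% interval -3.7 to -1.15, 5.36-fold lower), with arrays that did not overlap. Its unadjusted p of 0.00114 became an adjusted p of 0.364, and it was the single member past 4-fold at p under 0.01, beside 0.357% of all genes. The further Gfap probe sets gave -1.75 ± 0.64 and -1.05 ± 0.44 (adjusted p = 0.639 and 0.719). No member was called by limma in this comparison, and at an unadjusted p under 0.05 only Gfap passed, beside 7.0% of all genes.

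The remaining members had intervals that crossed 0 between SVZ and hippocampus. SVZ minus hippocampus was 1.53 for Vim (95% interval -0.07 to 3.12), 0.76 for S100a1 (-0.13 to 1.64) and 0.26 for S100b (-0.64 to 1.17). Prom1 differed by -0.19 (-1.84 to 1.45) and Nes by -0.25 (-0.61 to 0.11). For S100a10 the interval ran from -1.62 to 3.08 by the brightest probe set, and the dimmer probe set gave 0.46 ± 0.21 (adjusted p = 0.739). The S100a6 interval ran from -1.42 to 1.76. S100a16 had the narrower interval of -0.51 to 0.91 around 0.20.

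Single arrays were low or high for several members at a time, in SVZ and in the other regions. SVZ 1 was the lowest SVZ array for 5 members (Gfap, Vim, S100a10, S100a6 and Prom1), against 34.1% of all genes whose mean was over 3. SVZ 4 was the highest for 4 members (Gfap, S100a10, S100a16 and Prom1), against 23.9% of those genes. Hippocampus 4 was the highest hippocampus array for 4 members (Nes, S100b, S100a10 and Prom1), against 19.8%. No other array was the lowest or highest of its region for more than 3 members. The cerebellum had a smaller SD than both other regions for 5 of the 9 members, and for 77.4% of the 4816 genes with a mean over 3.

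The genes whose centred profiles over the 15 arrays lay nearest to each called member were found by the mean absolute difference. For Vim they were Man1c1 (0.77 log2 units), Spock2 (0.8) and Gab2 (0.8), and for S100b they were Kcnj3 (0.46), Pax3 (0.52) and Pcdh20 (0.52). Pax3, a transcription factor, averaged 1.11 in SVZ, 1.26 in hippocampus and 4.81 in cerebellum. Those nearest S100a10 were Dbndd2 (0.81), Efhd1 (0.83) and Plscr1 (0.96). Nearest Prom1 were Lhx2 (0.64), Nrarp (0.9) and Papss2 (0.95), of which Lhx2, a forebrain transcription factor, averaged 3.62 in SVZ, 4.04 in hippocampus and 0.91 in cerebellum. For Nes the nearest were H2-Aa (0.14), Prdm6 (0.15) and Tssk1 (0.15), all close to the floor.

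None of the relatives listed for these genes was called. Of 11 other S100 genes 8 were measured and none was called in any of the 3 comparisons by limma, with an unadjusted p under 0.05 for 1 of them, S100a13, lower in hippocampus than in cerebellum (-1.48 ± 0.57, adjusted p = 0.166). Their median difference was 0.10 in SVZ and 0.12 in hippocampus against cerebellum. A chosen list held 18 other intermediate filament genes, and genes of the family outside it were not counted. All 18 were measured and none was called, among them synemin, the neurofilaments, the lamins and the keratins Krt7, Krt8, Krt18 and Krt19. At an unadjusted p under 0.05, 2 of them were higher in SVZ than in cerebellum and none differed in the other comparisons. Of all genes, 21.1% in SVZ and 20.1% in hippocampus passed at that level against the cerebellum. Their median difference was 0.11 in SVZ and 0.23 in hippocampus.

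Of 15 further genes, made up of S100 binding partners, proteins that link filaments and prominin 2, 14 were measured and none was called. At an unadjusted p under 0.05, 3 were higher and 2 lower in SVZ than in cerebellum, beside 21.1% of all genes. In hippocampus 1 was higher than in cerebellum, beside 20.1%, and 1 was higher in SVZ than in hippocampus, beside 7.0%. Prom2, the second prominin, was at 1.67 ± 0.33 in SVZ, 1.46 ± 0.42 in hippocampus and 0.94 ± 0.19 in cerebellum (SD, n = 5 each), near the floor. Anxa2, the annexin bound by S100a10, was also near the floor at 1.61 ± 0.67 in SVZ, 1.5 ± 0.95 in hippocampus and 1.25 ± 0.12 in cerebellum. The genes named from these lists were chosen after their values were seen.

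Krt18, a keratin of simple epithelia, stood out on single arrays. It read 2.2, 1.4, 1.86, 2.13 and 1.61 in SVZ, 1.92, 7.24, 1.2, 4.19 and 7.14 in hippocampus, and 1.82, 1.51, 3.29, 2.9 and 6.47 in cerebellum. The high arrays were hippocampus 2, hippocampus 5 and cerebellum 5. Folr1, a choroid plexus marker, read 7.26, 7.04 and 6.71 on those same 3 arrays and at most 4.24 on the other 12. The choroid plexus markers Kl (7.79, 6.75 and 6.65) and Otx2 (6.69, 5.78 and 5.98) were high there too, against at most 3.25 and 3.12 on the other 12. The 5 measured choroid plexus markers had none called, and their log2 summed level ran from 6.13 to 10.36 in SVZ, 11.19 to 13.99 in hippocampus and 6.97 to 14.02 in cerebellum. That sum was made up mostly of Ttr, which read 5.96 to 10.35, 11.18 to 13.94 and 6.87 to 13.99 in those regions. Ttr was not confined to the 3 arrays, with 12.83 on hippocampus 3 and 13.45 on cerebellum 3, and Clic6 read only 2.92 on hippocampus 5. With the 3 arrays left out, a choice made after seeing the data, 3 members were still called in hippocampus against cerebellum, in place of 5, and Nes and S100a10 were lost (adjusted p = 0.229 and 0.126).

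**Figure D5:**
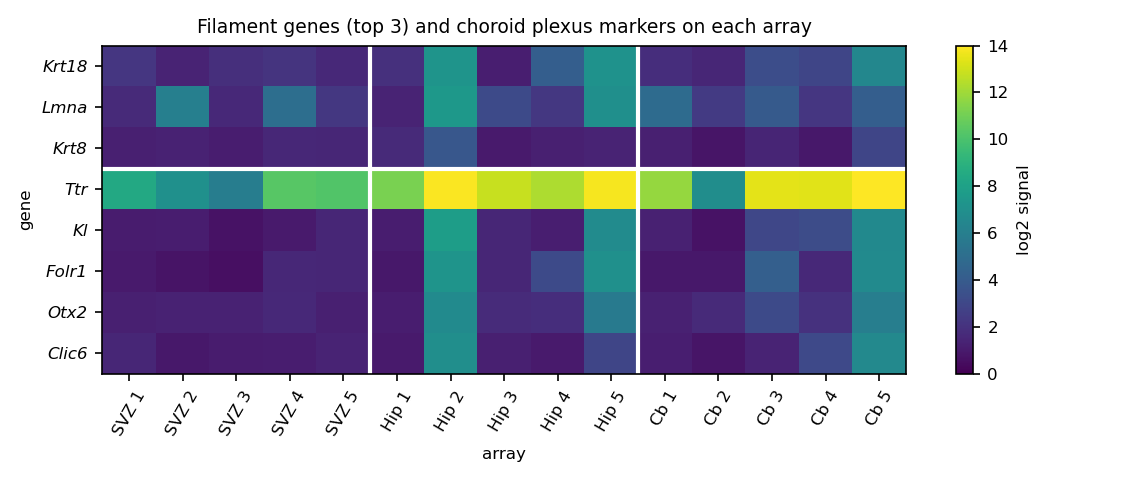
Log2 signal (colour) of 3 filament genes (Krt18, Lmna and Krt8) and 5 choroid plexus markers (rows) on each of the 15 arrays (columns, white lines between SVZ, hippocampus and cerebellum). Krt18 and Folr1 are both above 6 on hippocampus 2, hippocampus 5 and cerebellum 5 and on no other array.

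Microglia and vascular cells are known to make vimentin, and the markers of these and other cells are given here. Of 11 measured microglia markers 5 were higher in SVZ and 2 in hippocampus than in cerebellum, led by Csf1r (5.34 ± 0.92 in SVZ, adjusted p = 0.0034) and Laptm5 (4.92 ± 0.85, adjusted p = 0.00345). Their log2 summed level was 9.02 to 12.24 in SVZ, 7.75 to 11.06 in hippocampus and 4.93 to 7.34 in cerebellum, while Tmem119 stayed at or below 1.74 on all arrays. Of 11 endothelial and pericyte markers 1 was called, Pdgfrb, higher in SVZ (2.88 ± 0.62, adjusted p = 0.0145), with a log2 summed level of 6.05 to 8.69 in SVZ, 6.57 to 8.35 in hippocampus and 5.58 to 6.76 in cerebellum. None of the 7 meningeal, 5 oligodendrocyte precursor and 8 neuron markers was called in any comparison by limma. Up to 2 of a list in 1 direction had an unadjusted p under 0.05. Against the cerebellum 1 meningeal marker was higher and 1 lower in SVZ at that level, beside 21.1% of all genes. In hippocampus 2 were higher and 1 lower, beside 20.1%. The lower one was Col1a2, at 2.53 in SVZ and 2.55 in hippocampus against 4.76 in cerebellum (adjusted p = 0.171 and 0.188). Against the cerebellum, 4 of the 12 astrocyte markers were called in SVZ, with 3 up (Clu, Glul and Ntsr2) and 1 down (Slc1a3). In hippocampus 3 were called, with 1 up (Clu) and 2 down (Slc1a3 and Aldoc). The part of other cells in the members' differences was not tested.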

How the data were processed

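Sorted astroglia from 3 brain regions were measured on 15 Affymetrix expression arrays, 5 a region. The deposited values are log2 signals per probe set, which the authors computed by RMA, per the submitters' processing notes. These notes do not state the log base, and log2 was read from the range of the values. Among 45101 probe sets, 34958 had a single gene symbol, 932 had several and 9211 were not listed. Control probe sets were left out, and the probe set with the highest mean stood for each of 18193 genes.

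Regions were compared with limma 3.58.1 in R 4.3.3 (lmFit and eBayes, all 15 arrays in a single fit), with Benjamini-Hochberg adjustment over all genes and a threshold of 0.05. The script was tested on simulated data. Tables and figures used Python 3.11.15 and matplotlib 3.10.9. Every member was named, along with the 3 nearest profiles of each called member. From each companion list and each list of another cell type, the called genes with the smallest adjusted p were named. The called astrocyte markers were named too. Other companion and marker genes named were chosen after their values were seen. The members and lists were chosen with earlier results of these data known. Alternatives were other normalizations, filters, probe set rules, spreads, covariates and arrays left out. The number of arrays limits the precision.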

Additional observations from a re-analysis of the deposited data

Results flagged for a closer look

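In 27 sets of 5 arrays, 9 genes in 3 regions, an array stood far from the other 4 in 2 sets, and chance alone gives such a gap in about 1 in 20. S100a6 read 6.56 on hippocampus 1, while the other hippocampus arrays lay between 2.84 and 3.91. Without that array S100a6 was lower in hippocampus than in cerebellum by the test (-2.84, adjusted p = 0.0193). Prom1 read 3.86 on cerebellum 1, while the other cerebellum arrays lay between 0.53 and 1.24. Both Prom1 calls against the cerebellum held with any single array left out.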

How the results depend on the processing

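S100b kept both calls in every alternative run, and at the threshold of 0.05 Vim and Prom1 lost theirs only as given with them. With single arrays left out, the members called ranged from 3 to 5 in SVZ against cerebellum, 3 to 7 in hippocampus against cerebellum and 0 to 0 in SVZ against hippocampus. All genes called ranged from 612 to 1094, from 545 to 1162 and from 1 to 11. In SVZ against cerebellum the members called were 6 with a gene's probe sets averaged, and 1 without cerebellum 4 and 5, with the control transcript covariate or at an adjusted p under 0.01. In hippocampus against cerebellum they were 2, 1 and 2 in the last 3 of these settings, and 3 without hippocampus 2, hippocampus 5 and cerebellum 5. All genes called, 1002 and 869, became 585 and 469 with quantile normalization, 368 and 358 without cerebellum 4 and 5, and 184 and 212 with the covariate, and 1561 in SVZ with array weights. In SVZ against hippocampus the 4 genes called became 0 with probe sets averaged, a trended spread or only the 2 regions' arrays. Without the 3 arrays high in Krt18 they were also 0, and without SVZ 1 and hippocampus 3 they were 9. They were 1 without cerebellum 4 and 5 and 2 with the covariate, and the 4-fold rule kept 1 member.

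Where a sign turned, the value under the alternative was not called. Gfap in SVZ against cerebellum became 0.02 with quantile normalization, 0.16 without cerebellum 4 and 5, and 0.54 with the covariate, and in hippocampus -0.69 by another probe set. S100a1 became -0.27 (probe sets averaged) and -0.91 (other probe set) in SVZ, 0 in hippocampus with quantile normalization, and -0.7 between SVZ and hippocampus by the other probe set. A further probe set gave 0.15 for S100a10 and -0.36 for Nes in hippocampus against cerebellum. Between SVZ and hippocampus, S100a6 became -0.03 with quantile normalization and -0.19 without the 3 arrays high in Krt18, and S100b became -0.1 without those. In that comparison Nes became 0.01 and S100a16 0 with probe sets averaged. Further probe sets gave -0.21 for S100a16, -0.15 for S100a10 and 0.36 for Nes. With single arrays left out, that comparison ran from -0.77 to 0.16 for Prom1, -0.11 to 0.83 for S100a6, -0.09 to 0.38 for S100a16 and -0.11 to 1.42 for S100a10. The causes were not tested.

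The labels do not say whether the replicate numbers pair the arrays. Same-numbered arrays of different regions deviated together with r between -0.105 and 0.189 (median 0.049), over 0.1 in 2 of 15 pairs. For arrays with different numbers r ran from -0.192 to 0.452 (median -0.0095), over 0.1 in 2 of 60 pairs. Whether the numbers pair the arrays cannot be told from these values. With the replicate number as a block, Gfap in hippocampus against cerebellum had an adjusted p of 0.0468 and Nes 0.075. Signal near the floor limits Nes, Prom2, Anxa2 and, in the cerebellum, Prom1.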
